A study of Mus musculus with 10 samples.

Results

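A set of 35 genes of fat cells and of lipid synthesis was followed across 10 mouse tumors, 5 sarcomatoid tumors and 5 adenocarcinomas, measured on 2-colour Agilent arrays. Members were given by name and found by the gene name of the array's probes. Each of the 35 had a probe in the deposited table, out of 27962 gene names on the array and 40196 probes tested, and where a gene had several probes the brightest was used. The set holds 20 fat cell markers, 11 enzymes and helper proteins of lipid synthesis (called enzymes here), 3 lipases and the apolipoprotein gene Apoc1. On the array Plin1 is named Plin and Plin4 is named S3-12.

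White fat cells store triglyceride in a single large droplet coated with perilipins, take up fatty acids and glucose from the blood and release hormones such as adiponectin and leptin. Brown fat cells burn lipid for heat through the uncoupling protein Ucp1. Fatty acids are made from citrate by Acly, Acaca and Fasn, then lengthened by Elovl6 and desaturated by Scd1. Agpat2, Lpin1, Dgat1 and Dgat2 build them into triglyceride. The mammary gland is embedded in a fat pad, so a mammary tumor can contain fat cells of the host, while the synthesis enzymes also work in mammary epithelium, which makes milk fat, and in carcinoma cells. A tumor lysate is a mixture, in which fewer cells of a type and less RNA per cell cannot be told apart.

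The adenocarcinomas were tumors 105, 131, 470, 17 and 85, all mammary tumors of mice on a C57BL/6 background that carry MMTV-Cre with the mutant alleles Pik3ca H1047R and Trp53 R270H. MMTV-Cre switches the mutant alleles on mainly in mammary epithelium, and MMTV-Cre is shared by all primary tumors. The sarcomatoid group held the mammary tumors 323, 307 and 594 and lung tumors that carry the numbers 323 and 307. It comprised a primary tumor with the same 3 alleles as the adenocarcinomas, a primary tumor of an MMTV-Cre mouse with Pik3ca H1047R that had gained Trp53 R245H by itself, a lung tumor grown from a cell line of each of these after tail vein injection, and a primary tumor of an MMTV-Cre mouse with Trp53 R270H. The labels call tumor 594 a sarcomatoid carcinoma and all others of the group sarcomatoid adenocarcinomas. The unpaired genotype also belongs to tumor 594, and which of 323 and 307 has which of the other genotypes is not given in the sources used here. The group thus has 3 tumor origins, and the age of the mice and the purity of the tumors are not given in the sources used here. The labels do not say that tumors came from separate animals, so that p-values measure the spread between these samples.

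Values are log2 ratios of red over green in the authors' normalized table, and a positive value was read as more RNA in the tumor than in the reference. This direction is likely but not settled, because the labels name Cy3, the green dye, for the tumor RNA. Across the arrays the green signal of 34 of the 35 genes varied less than the red (median SD of the log2 signal 0.596 against 1.49). Over all probes the gap was smaller, 0.622 against 0.845, with green the less variable for 29420 of 40196. On this basis green was read as the common reference. The paper reports Krt18 and Epcam lower, and Mrc1 and Itgam higher, in the metastatic sarcomatoid tumors than in the adenocarcinomas. Red over green gave the same directions, with log2 fold changes of -3.32, -2.86, 1.71 and 1.61 between the groups. If the dye label were right, every sign below would turn, and these genes would run against the paper. The reference itself was dim for several fat cell markers. Green was well above background on 3 of 10 arrays for Adipoq, 2 for Plin1 and for Lep, 4 for Cfd, 3 for Pck1 and 1 each for Ucp1, Aqp7 and Adrb3, so the size of these ratios is imprecise. Green variation also enters the differences between tumors, as the log2 green signal of the 20 fat cell markers had a median SD of 1.14 across the arrays, against 2.24 in red.

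Across arrays 52.3% to 83.1% of probes were well above background in red. Tumor 470, labelled as adenocarcinoma, stood apart from the other adenocarcinomas in 7 epithelial genes such as Epcam and Krt8, whose mean log2 ratio was -1.89 there and 2.86 to 3.17 in the other 4, so results are also given without it. By the version of the Feature Extraction software that read the scans, the arrays form 3 sets, called software batches here. The first held tumor 323, the second held tumors 307, 594, 105 and 470, and the third held both lung tumors and tumors 131, 17 and 85.

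Upstream sequences are shown for 4 members, to set fat cell genes (Adipoq and Plin1) beside enzymes that act at the start of fatty acid synthesis (Acly and Fasn). Of the 35 genes 24 had a start site in the RefSeq promoter table (GRCm38.p6). Each sequence holds the 250 bases before the start, read 5′ to 3′ on the gene's strand, at chr16:23146286-23146535 (plus strand) for Adipoq, chr7:79732777-79733026 (minus) for Plin1, chr11:100528001-100528250 (minus) for Acly and chr11:120824548-120824797 (minus) for Fasn. Capitals mark 3 motifs searched on both strands: TTGCNNAA, a form of the site bound by C/EBP proteins, AGGTCA, a core of many nuclear receptor sites, and CCAAT, the CCAAT box.
Adipoq: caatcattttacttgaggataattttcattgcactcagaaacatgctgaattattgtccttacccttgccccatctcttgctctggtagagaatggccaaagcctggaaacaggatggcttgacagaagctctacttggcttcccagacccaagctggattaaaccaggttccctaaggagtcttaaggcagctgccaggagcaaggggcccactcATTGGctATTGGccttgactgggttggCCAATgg
Plin1: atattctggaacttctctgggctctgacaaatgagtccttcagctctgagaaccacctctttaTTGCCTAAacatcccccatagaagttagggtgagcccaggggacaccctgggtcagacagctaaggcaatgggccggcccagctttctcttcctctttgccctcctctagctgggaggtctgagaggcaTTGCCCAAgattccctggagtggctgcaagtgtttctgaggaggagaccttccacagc
Acly: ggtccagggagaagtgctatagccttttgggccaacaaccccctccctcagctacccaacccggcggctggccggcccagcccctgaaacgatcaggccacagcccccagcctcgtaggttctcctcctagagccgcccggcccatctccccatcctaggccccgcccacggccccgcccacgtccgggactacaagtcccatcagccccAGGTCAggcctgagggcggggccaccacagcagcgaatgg
Fasn: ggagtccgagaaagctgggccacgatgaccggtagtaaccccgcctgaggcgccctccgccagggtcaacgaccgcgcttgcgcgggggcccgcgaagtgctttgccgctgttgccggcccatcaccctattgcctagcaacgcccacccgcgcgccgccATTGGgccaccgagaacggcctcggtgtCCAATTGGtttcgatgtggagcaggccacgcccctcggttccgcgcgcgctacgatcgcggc
Adipoq and Fasn each had 3 CCAAT boxes, of which a pair in Fasn overlap as CCAATTGG, Plin1 had 2 C/EBP-type sites and Acly had 1 nuclear receptor core site. Over all 32851 windows of this length, 33.8% held a CCAAT box, 9.56% a C/EBP-type site and 14.0% a nuclear receptor core site. Members were counted by gene, with a match in any window of the gene, so their counts and these shares per window are in unlike units. Among the 24 members the C/EBP-type letters were found for 4 of 13 fat cell markers (Cidec, Lep, Plin1 and Pparg) and for 0 of 8 enzymes, and the core site for 4 of the 13 and 3 of the 8. These are matches of letters and were not set against the expression values.

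The fat cell markers differed widely between single tumors of the same group. Tumor 105, an adenocarcinoma, had the highest value of 17 of the 20 markers and the highest mean over them, 3.87. The next means were those of 594 (1.91), 470 (1.63) and 307 (1.21). Lung tumor 323 followed with 1.04, then 85 (0.77), 131 (0.67) and 323 (0.10), and tumor 17 (-0.12) and lung tumor 307 (-0.16) were lowest. The 4 arrays with the highest means are the 4 of the second software batch. By the barcodes in the file headers, tumors 307 and 105 shared a slide, as did 594 and 470, while every other array had its own. Probes well above background in red made up 77.2% to 83.1% on these 4 arrays and 52.3% to 72.3% on the others, with tumor 105 the highest. The part of batch, slide and detection in these levels was not tested.

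**Figure D1:**
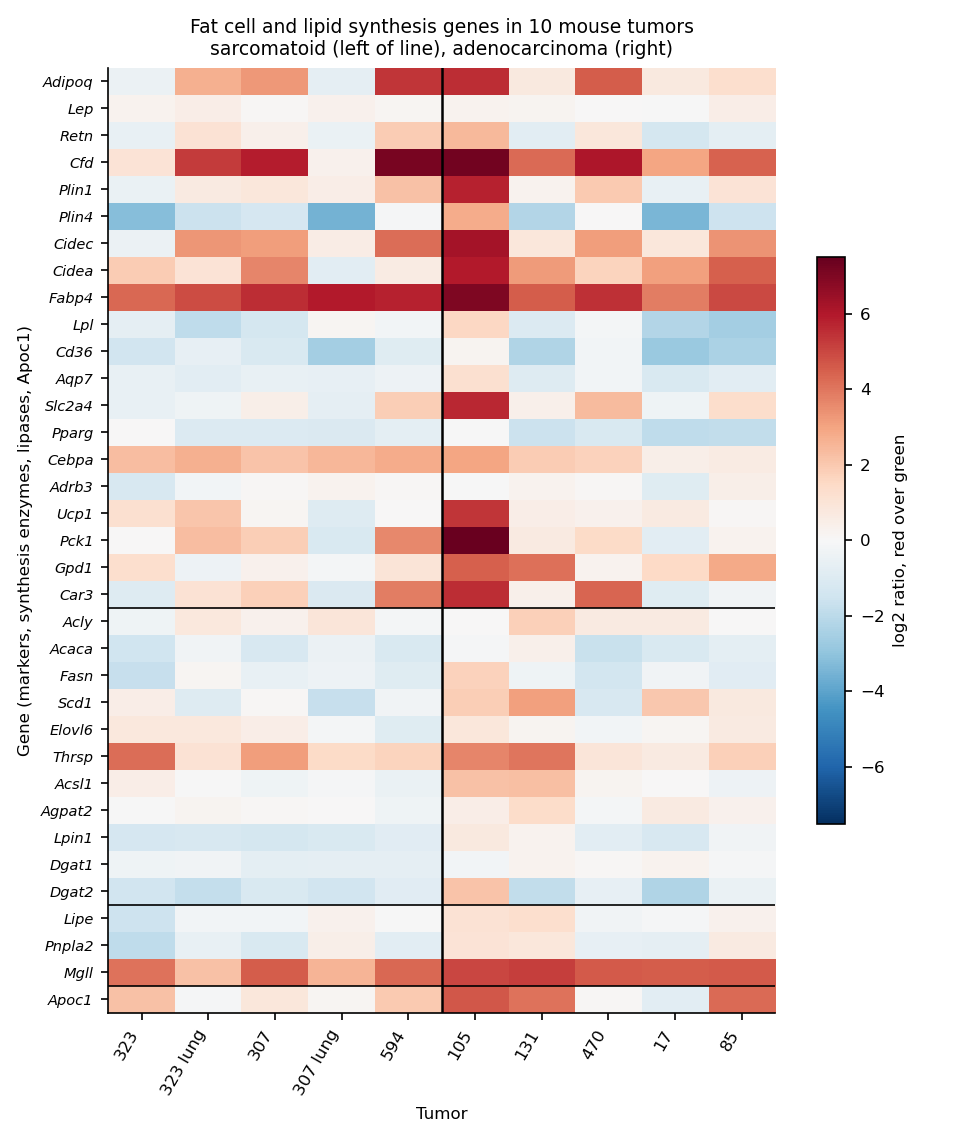
Log2 ratio (red over green, colour scale) of the 35 genes (rows; fat cell markers, synthesis enzymes, lipases and Apoc1 set apart by lines) in the 10 tumors (columns; sarcomatoid left of the vertical line, adenocarcinoma right). Tumor 105 is highest for 17 of the 20 fat cell markers, and tumors 594, 470 and 307 have the next highest means over them.

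Of the hormones and secreted proteins of fat cells, Adipoq and Cfd were highest in tumors 105, 594 and 470, and Retn and Lep had other orders. Adipoq, which codes for adiponectin (probe on chromosome 16, 22816125 to 22816184, mm7, as annotated in the file of tumor 323), had log2 ratios of 5.52 in tumor 105, 4.55 in 470, 1.24 in 85, 0.72 in 131 and 0.71 in 17. In the sarcomatoid group it was at 5.34 in 594, 3.26 in 307, 2.67 in lung tumor 323, -0.42 in 323 and -0.70 in lung tumor 307, where the last 2 arrays were not well above background. Cfd, the complement protease adipsin, ranked the 10 tumors in the same order, at 7.23, 6.08, 4.40, 4.26 and 2.96 in 105, 470, 85, 131 and 17. It was at 7.10 in 594, 5.90 in 307, 5.26 in lung tumor 323, 1.04 in 323 and 0.30 in lung tumor 307. The highest value of each group was thus nearly the same, while the 2 lowest tumors for both genes, 323 and lung tumor 307, were sarcomatoid and lay below every adenocarcinoma. Retn, the hormone resistin, spanned -1.34 (tumor 17) to 2.42 (tumor 105), and its other probe moved between the groups with the opposite sign. Lep, the satiety hormone leptin, was flat, at -0.06 to 0.52, and it was well above background on 6 of 10 arrays.

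Proteins of the lipid droplet spanned over 6 log2 units. Plin1, a perilipin that coats the droplet, was at 5.75 in tumor 105, 1.99 in 470, 1.03 in 85, 0.25 in 131 and -0.56 in 17. The sarcomatoid values were 2.20 (594), 0.88 (307), 0.70 (lung tumor 323), 0.52 (lung tumor 307) and -0.47 (323), and the Plin1 signal exceeded background in 4 sarcomatoid tumors and in 2 adenocarcinomas. Tumor 105 thus lay well above every other tumor for Plin1, whereas for Adipoq and Cfd tumor 594 was close to it. Cidec, which helps droplets to fuse and grow, was at 6.26 in 105, 3.35 in 85, 3.15 in 470, 0.87 in 131 and 0.86 in 17, and at 4.21 in 594, 3.29 in lung tumor 323, 3.13 in 307, 0.57 in lung tumor 307 and -0.43 in 323. Plin4, another perilipin, ran from -3.57 in lung tumor 307 to 2.77 in 105. Cidea, a droplet protein of brown fat and of milk-secreting epithelium, had another order. It was at 5.95 in 105, 4.46 in 85, 3.17 in 131, 3.09 in 17 and 1.67 in 470, and at 3.69 in 307, 1.92 in 323, 1.01 in lung tumor 323, 0.64 in 594 and -0.81 in lung tumor 307, so tumors 594 and 470, high for Adipoq, were low here.

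Among the genes of lipid and sugar uptake, the order of the tumors varied from gene to gene. Fabp4, a fatty acid carrier of fat cells that endothelium and macrophages also make, was far above the reference in every tumor, at 6.98 in 105, 5.49 in 470, 4.95 in 85, 4.54 in 131 and 3.81 in 17. Its highest sarcomatoid value was that of lung tumor 307 (5.97), a tumor near the bottom for Adipoq, followed by 594 (5.79), 307 (5.53), lung tumor 323 (4.92) and 323 (4.30). Lpl, the lipase that frees fatty acids from circulating lipoproteins, stayed below the reference in most tumors, at 1.57 in 105, -0.15 in 470, -1.003 in 131, -2.23 in 17 and -2.56 in 85. In the sarcomatoid tumors Lpl was at 0.12 (lung tumor 307), -0.21 (594), -0.65 (323), -1.33 (307) and -1.89 (lung tumor 323). Slc2a4, the insulin-responsive glucose transporter, followed Adipoq in its highest tumors, with 5.65 in 105, 2.37 in 470 and 1.87 in 594, and at most 1.33 elsewhere. Cd36, a fatty acid receptor, spanned -2.78 to 0.22, and its other probe had the opposite sign between the groups. Aqp7, the glycerol channel, was well above background on 4 arrays only and reached 1.204 in tumor 105. For 7 markers, Adipoq, Cfd, Plin1, Plin4, Aqp7, Slc2a4 and Car3, the 3 highest tumors were 105, 594 and 470, and this was so for 0 of the 11 enzymes.

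The transcription factors Pparg and Cebpa varied less between tumors than Adipoq or Cfd did. Pparg, the nuclear receptor that drives fat cell formation, spanned -1.92 to 0.05, with its highest values in tumors 323 and 105. Cebpa, a transcription factor of fat cells and other lineages, was at 1.74 to 2.96 in 8 tumors and at 0.45 and 0.60 in tumors 17 and 85. Both had a higher mean in sarcomatoid tumors than in adenocarcinomas, against the median of the fat cell markers. The log2 fold changes were 0.94 (SE 0.44, limma adjusted p 0.546) for Cebpa and 0.55 (SE 0.39, limma adjusted p 0.711) for Pparg. Without tumor 105 they were 1.30 (limma adjusted p 0.497) and 0.87 (limma adjusted p 0.549). Adrb3, the adrenergic receptor of fat cells, was not well above background on any sarcomatoid array and on 1 adenocarcinoma, so no fold is given for it. The brown fat gene Ucp1 was at 5.33 in tumor 105 and at most 2.08 elsewhere. Pck1, which supplies glycerol for triglyceride in fat cells, was at 7.40 in tumor 105, the highest value of any member, and at 3.61 in 594. Car3, a carbonic anhydrase abundant in fat and in muscle, was at 5.54 in 105, 4.37 in 470 and 3.83 in 594 and at most 1.80 elsewhere. Tumor 105 therefore carried both white fat markers and Ucp1 and Cidea of brown fat. In a separate list of 6 brown fat genes its mean was 2.998 against 0.57 to 1.39 in the other 9 tumors, but only Cox8b (6.63) and Cox7a1 (2.63), which muscle also expresses, were highest there. Dio2 and Prdm16 were highest in tumor 323, Elovl3 in 131 and Ppargc1a in 85.

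Skeletal muscle genes were high in the same tumors. The mean log2 ratio of 6 such genes (Acta1, Ckm, Myh4, Tnnt3, Mylpf and Actn3) was 5.15 in 105, 3.14 in 470 and 2.48 in 594, the 3 tumors highest for 7 fat cell markers, and -2.48 to 0.31 in the other 7. Tumor 307, which had the fourth highest mean of fat cell markers, was low in muscle genes (-1.97). The part of neighbouring tissue in the fat cell values was not tested.

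**Figure D2:**
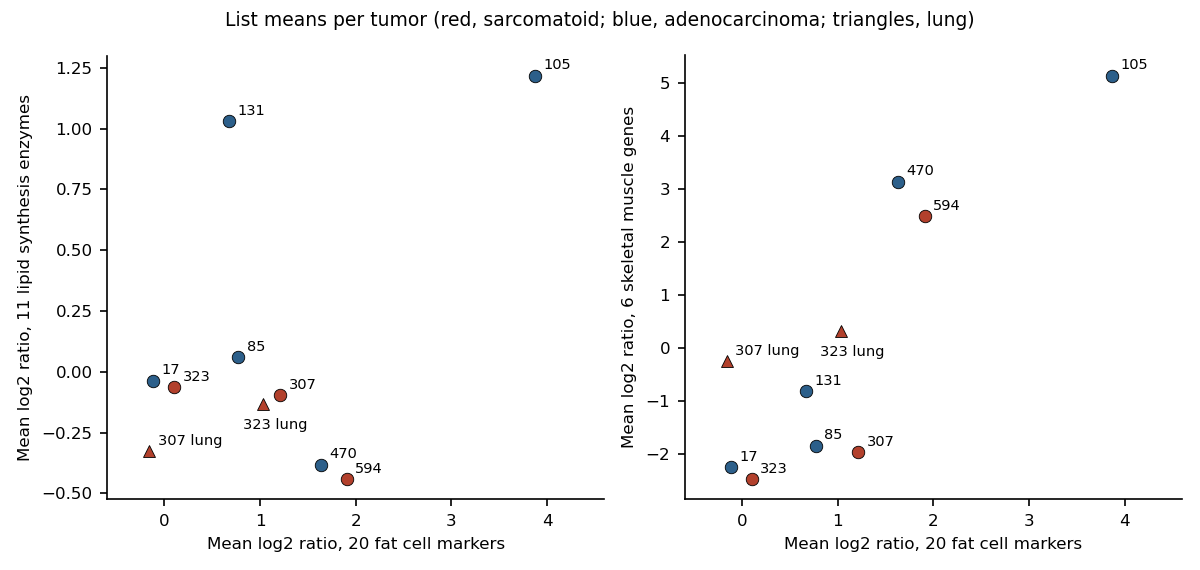
Mean log2 ratio of the 20 fat cell markers (horizontal axes) against that of the 11 synthesis enzymes (left) and of 6 skeletal muscle genes (right), each point a tumor (red sarcomatoid, blue adenocarcinoma, triangles lung). Tumors 105, 470 and 594 lie at the top right for muscle genes, while for the enzymes 470 and 594 are the lowest of the 10.

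Against adenocarcinomas, the sarcomatoid tumors had a lower median for the fat cell markers and for the enzymes, and no member passed the test. By limma with Benjamini-Hochberg adjustment over 40196 probes, 0 of the 35 members and 0 probes in all (0.0%) had an adjusted p below 0.05, with member values between 0.405 (Gpd1) and 0.984 (Lpl). At an unadjusted limma p below 0.05, 7 members were lower (Cidea, Gpd1, Scd1, Lpin1, Dgat1, Pnpla2 and Mgll) and 0 higher, where 4.25% of all probes were lower and 4.98% higher. The share of 7 in 35 has no test of its own, since the genes were measured in the same tumors.

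The median log2 fold change over the 20 fat cell markers was -0.49, with 13 lower and 7 higher, beside -0.0017 over all probes. This median rested on tumor 105. Without it the median was 0.09, with 14 of 20 markers higher in sarcomatoid tumors, and Adipoq, Plin1, Cidec, Ucp1, Pck1, Car3 and Aqp7 changed sign. Within the second software batch (307 and 594 against 105 and 470) the median was -1.02, with 18 of 20 lower, and within the third batch (both lung tumors against 131, 17 and 85) it was 0.25, with 15 of 20 higher. The direction of the fat cell markers thus turned with the array set compared. Tumor 105 is in the second batch only and the lung tumors are in the third only. Batch, site and tumor 105 therefore cannot be told apart in this turn.

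Single markers show how wide the spread was. Adipoq averaged 2.03 ± 2.56 (SD, n = 5) among sarcomatoid tumors. Its adenocarcinoma mean was 2.55 ± 2.31 (SD, n = 5), which leaves a difference of -0.52 (SE 1.28, limma adjusted p 0.936). The differences were -1.07 (SE 1.29) for Cfd, -0.93 (SE 0.99) for Plin1, -0.74 (SE 1.11) for Cidec, 0.15 (SE 0.54) for Fabp4 and 0.08 (SE 0.71) for Lpl. Exact two-sided permutation tests over the 10 tumors gave p = 0.762 for Adipoq, 0.492 for Cfd, 0.571 for Plin1, 0.556 for Cidec, 0.833 for Fabp4 and 0.913 for Lpl. For Adipoq a difference of 1 SE is over a factor of 2, so that differences of that size were not detectable with 5 tumors a group.

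**Figure D3:**
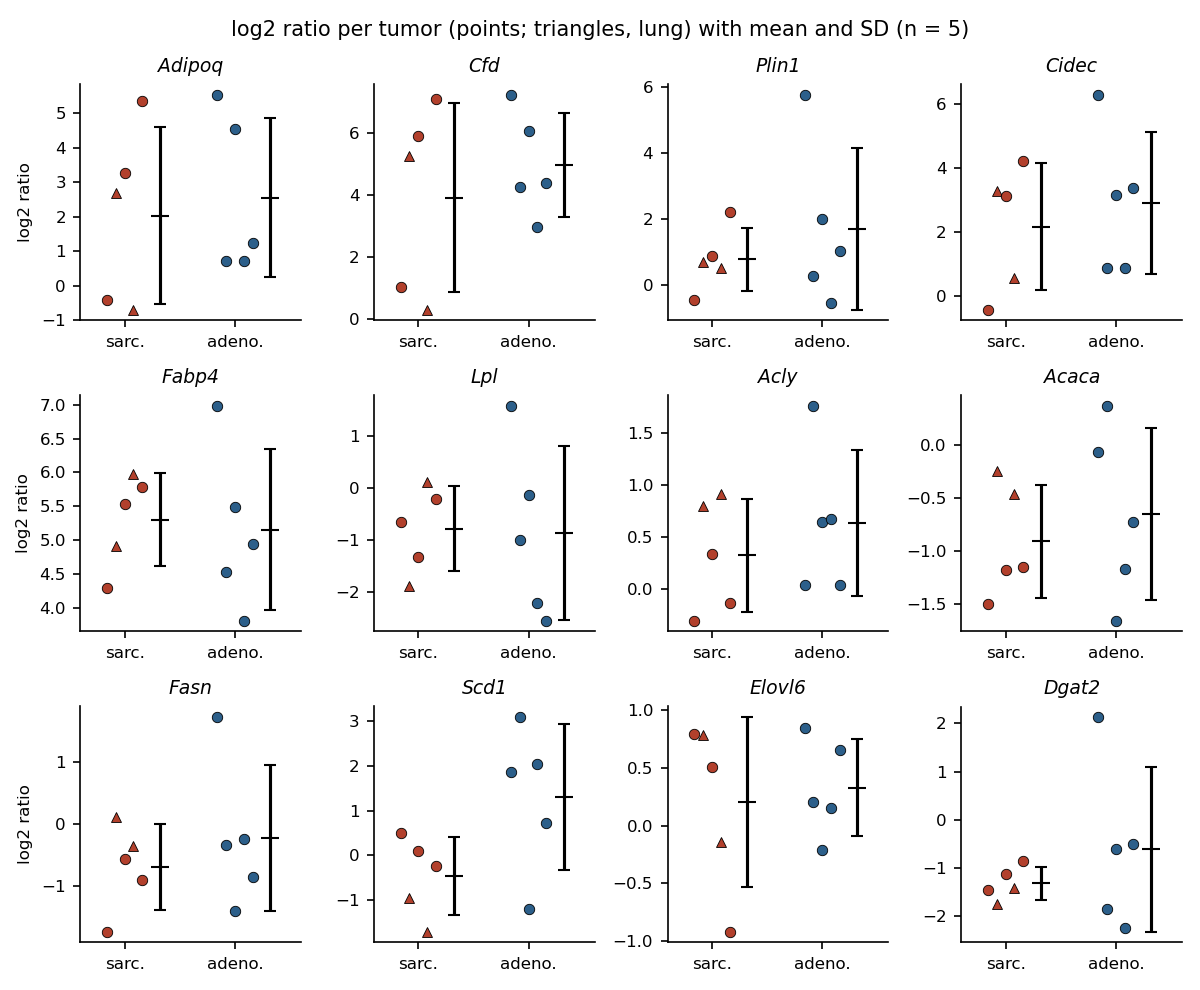
Log2 ratio of 6 fat cell markers and 6 synthesis enzymes in each tumor (points, triangles for lung tumors; red sarcomatoid, blue adenocarcinoma), with mean and SD (n = 5) beside the points. The groups overlap for each of the 12 genes, and tumor 105 is the highest adenocarcinoma for 9 of them.

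Gpd1 and Cidea had the clearest differences among the markers, and neither followed Adipoq. Gpd1, the enzyme that makes the glycerol backbone of triglyceride, was at 4.49 in 105, 4.14 in 131, 2.85 in 85, 1.49 in 17 and 0.28 in 470. In sarcomatoid tumors it was at 1.27 (323), 0.96 (594), 0.33 (307), -0.14 (lung tumor 307) and -0.38 (lung tumor 323), so that 4 adenocarcinomas lay above all sarcomatoid tumors and 470 lay among them. Gpd1 averaged 0.41 ± 0.70 and 2.65 ± 1.77 (SD, n = 5), a difference of -2.24 (SE 0.73, limma adjusted p 0.405; exact permutation p = 0.0397). Without tumor 470 it was the only member with an adjusted p below 0.05 (log2 fold change -2.83, SE 0.59, limma adjusted p 0.0444), where 1.54% of all probes passed, and its other probe gave -1.36 with all tumors. This fit counts the lung tumors as separate, although they share their origin with mammary tumors 323 and 307. With 1 value per tumor number and tumor 470 kept, the smallest limma adjusted p of any member was 0.675. Cidea differed by -2.38 (SE 0.87, limma adjusted p 0.446; exact permutation p = 0.0556). Milk and secretory genes (6 genes, such as Csn2 and Wap) had per-tumor means of -0.19 to 2.03 in sarcomatoid tumors and 1.29 to 5.76 in adenocarcinomas, and their part in the Gpd1 and Cidea values was not tested.

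For the enzymes the median log2 fold change was -0.54, with 10 of 11 lower in sarcomatoid tumors, and it kept its sign without tumor 105 (-0.46, 8 of 11 lower), without tumor 470 (-0.70, 11 of 11 lower) and within the second batch (-0.52) and the third batch (-0.60). None of the 11 passed the adjusted threshold, where the smallest limma adjusted p was 0.451 (Dgat1). Tumors 105 and 131 had the highest means over the enzymes, 1.22 and 1.03, and the other 8 lay between -0.44 and 0.06. The highest value of 5 enzymes was in 131 and of 4 in 105. Tumor 131 was also highest for the milk and secretory genes (mean 5.76), and the part of milk-secreting epithelium in its enzyme levels was not tested.

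Enzymes at the start of fatty acid synthesis differed little between the groups. Acly, which makes acetyl-CoA from citrate, was at 1.76 in 131, 0.67 in 17, 0.65 in 470, 0.04 in 105 and 0.03 in 85, and at 0.92 in lung tumor 307, 0.80 in lung tumor 323, 0.33 in 307, -0.14 in 594 and -0.31 in 323. Acaca, the acetyl-CoA carboxylase, was at 0.36 in 131, -0.07 in 105, -0.73 in 85, -1.17 in 17 and -1.66 in 470. The sarcomatoid values of Acaca were -0.25 (lung tumor 323), -0.46 (lung tumor 307), -1.15 (594), -1.18 (307) and -1.50 (323). For both genes the lung tumors were the highest of their group. Fasn, the fatty acid synthase (probe on chromosome 11, 120916191 to 120916250, mm7), was at 1.73 in 105, -0.24 in 17, -0.34 in 131, -0.85 in 85 and -1.40 in 470, and at 0.12 in lung tumor 323, -0.35 in lung tumor 307, -0.57 in 307, -0.90 in 594 and -1.74 in 323. The differences between the groups were -0.31 (SE 0.38) for Acly, -0.26 (SE 0.41) for Acaca and -0.47 (SE 0.54) for Fasn, with exact permutation p = 0.468, 0.571 and 0.516. The Fasn value came from tumor 105, without which it was 0.02, and the other Fasn probe gave 0.05.

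Further along the pathway the genes parted. Scd1, the desaturase that makes oleate, was at 3.09 in 131, 2.04 in 17, 1.87 in 105, 0.72 in 85 and -1.20 in 470, and at 0.50 in 323, 0.09 in 307, -0.24 in 594, -0.94 in lung tumor 323 and -1.71 in lung tumor 307. Here the 4 adenocarcinomas other than 470 lay above every sarcomatoid tumor, and the log2 fold change was -1.76 (SE 0.71, limma adjusted p 0.480; exact permutation p = 0.0714). Without tumor 470 it was -2.39, with a limma adjusted p of 0.0534. Elovl6, an elongase, was nearly level, at 0.84 (105), 0.66 (85), 0.21 (131), 0.15 (17) and -0.21 (470), and 0.79 (323), 0.78 (lung tumor 323), 0.51 (307), -0.14 (lung tumor 307) and -0.92 (594). Its difference was -0.12 (SE 0.37; exact permutation p = 0.762). Thrsp, a protein of lipogenic tissues, was highest in sarcomatoid tumor 323 (4.17), followed by 131 (4.001) and 105 (3.65). It was the sole enzyme with a higher sarcomatoid mean (0.10), and this difference turned to -0.59 with loess normalization.

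The enzymes that build triglyceride were lower on average in sarcomatoid tumors. Dgat1, which adds the last fatty acid, was at 0.27 in 17, 0.24 in 131, 0.11 in 470, -0.10 in 85 and -0.22 in 105, and at -0.28 in lung tumor 323, -0.33 in 323, -0.66 in lung tumor 307, -0.68 in 594 and -0.74 in 307. The groups did not overlap, but the gap between them was narrow, and no other member's brightest probe was without overlap in this comparison (1 of 35, 2.86%, against 1.33% of all probes). The log2 fold change was -0.60 (SE 0.22, limma adjusted p 0.451), and the exact permutation p was 0.00794, the smallest that 5 against 5 can give. This p counts the lung tumors as separate, although they share their origin with mammary tumors 323 and 307. It is not adjusted over the members. The other Dgat1 probe gave -0.57, with overlap between the groups. Dgat2, the other enzyme of this step, was at 2.13 in 105, -0.52 in 85, -0.61 in 470, -1.85 in 131 and -2.24 in 17, and between -1.76 (lung tumor 323) and -0.86 (594) in the sarcomatoid tumors, with -1.12 in 307, -1.42 in lung tumor 307 and -1.45 in 323. Its difference of -0.71 (SE 0.67; exact permutation p = 0.484) was -0.02 without tumor 105. Lpin1 (-0.88, SE 0.35) and Agpat2 (-0.54, SE 0.29), which act before it, and Acsl1 (-0.95, SE 0.52), which activates fatty acids, had limma adjusted p of 0.480, 0.601 and 0.607.

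The 3 lipases, which take stored triglyceride apart in turn, were all lower on average in sarcomatoid tumors. Mgll, the monoglyceride lipase of the last step (probe on chromosome 6, 88903385 to 88903444, mm7), was at 5.20 in 131, 5.01 in 105, 4.61 in 470, 4.58 in 85 and 4.51 in 17. In the sarcomatoid tumors it was at 4.53 (307), 4.31 (594), 4.10 (323), 2.55 (lung tumor 307) and 2.21 (lung tumor 323). The lung tumors thus stood apart from the 8 mammary tumors. The difference between the groups was -1.24 (SE 0.45, limma adjusted p 0.442; exact permutation p = 0.0159), and its other probes gave -0.31 and -1.44, and for 1 of them the groups did not overlap. Pnpla2, the lipase of the first step, was at 1.02 in 105, 0.84 in 131, 0.67 in 85, -0.62 in 470 and -0.65 in 17, and at 0.43 in lung tumor 307, -0.58 in lung tumor 323, -0.77 in 594, -1.12 in 307 and -1.91 in 323. Lipe, the hormone-sensitive lipase, was at 1.28 in 131, 1.08 in 105, 0.32 in 85, -0.10 in 17 and -0.26 in 470, and at 0.33 in lung tumor 307, -0.01 in 594, -0.21 in lung tumor 323, -0.22 in 307 and -1.56 in 323. Over all 10 tumors Pnpla2 differed by -1.04 (SE 0.47, limma adjusted p 0.540) and Lipe by -0.80 (SE 0.41, limma adjusted p 0.586). Apoc1, an apolipoprotein of liver and macrophages, was above 4 in tumors 105, 85 and 131 and between -0.78 and 2.19 in the other 7 (difference -1.46, SE 1.04, limma adjusted p 0.716).

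**Figure D4:**
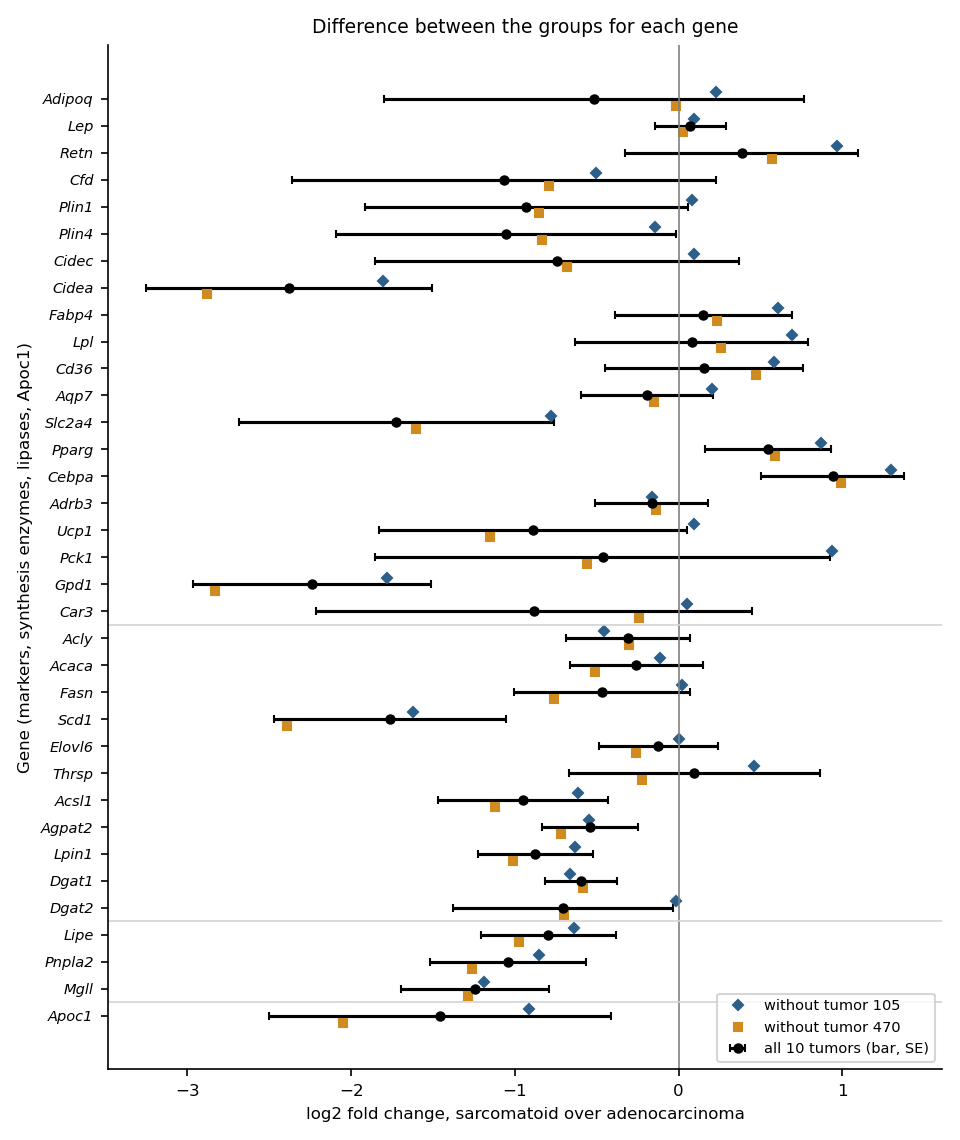
Log2 fold change of each gene between sarcomatoid tumors and adenocarcinomas (points, bars 1 SE, all 10 tumors), with the value without tumor 105 (diamonds) and without tumor 470 (squares). Leaving out tumor 105 moves the median of the fat cell markers to 0.09, while 8 of 11 enzymes and all 3 lipases stay below 0.

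Lung tumors grow away from the mammary fat pad, so the 3 mammary sarcomatoid tumors were also set against the 5 adenocarcinomas on their own. In limma's fit with 3 groups, 0 members and 0 probes in all (0.0%) passed, and the smallest member adjusted p was 0.556 (Pnpla2). At an unadjusted limma p below 0.05, 3 members were lower (Dgat1, Lipe and Pnpla2) and 0 higher, that is 8.57% of members, against 3.76% of all probes lower and 4.83% higher. The median was -0.18 for the fat cell markers, with 12 of 20 lower, and -0.64 for the enzymes, with 10 of 11 lower, beside -0.0136 for all probes. Adipoq differed by 0.18 (SE 1.49). The smallest p were those of Pnpla2 at -1.52 (SE 0.49), Dgat1 at -0.64 (SE 0.26, limma adjusted p 0.579) and Lipe at -1.06 (SE 0.47, limma adjusted p 0.580), while Mgll, the other lipase, was at -0.47 (SE 0.27, limma adjusted p 0.611). Exact permutation tests of 3 against 5 tumors gave p = 0.0357 for Pnpla2, 0.0179 for Dgat1, the smallest this design allows, and 0.143 for Lipe. Without overlap were Dgat1 and Pnpla2, 5.71% of members against 5.83% of all probes, a share near the background.

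Lung and mammary sarcomatoid tumors, which differ in the site of growth, were also compared. The lung tumors were grown from cell lines after tail vein injection and were read in the third software batch. The mammary sarcomatoid tumors were in the first and second batches. Site, cell culture and batch therefore cannot be told apart in this comparison. In the same fit 10 probes (0.0249%) passed the adjusted threshold and 0 of the 35 members did. At an unadjusted limma p below 0.05, 1 member was lower (Mgll, 2.86% of members) and 0 higher, against 5.1% of all probes lower and 5.59% higher. Mgll had a lower mean in lung tumors (log2 fold change -1.93, SE 0.34, limma p 0.000164, adjusted p 0.143). Next came Pnpla2 (1.19, SE 0.61, limma adjusted p 0.518) and Acly (0.90, SE 0.50, limma adjusted p 0.551), both higher in lung tumors. The median of the fat cell markers was -0.40, with 15 of 20 lower in lung tumors, and that of the enzymes 0.12, with 7 of 11 higher. With 2 lung tumors against 3, an exact permutation test cannot give a p under 0.1. The groups did not overlap for 11 members (31.4%), against 34.3% of all probes, a share near the background. With tumor number as a replicate block, which compares each lung tumor with the mammary tumor of its own origin, 0 probes passed. Lep, Aqp7 and Adrb3 were not well above background on either lung array, and no fold is given for them here. None of the 6 lung epithelium genes passed the adjusted threshold.

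The 2 pairs of lung and mammary tumor moved the fat cell markers in opposite directions. From the mammary to the lung tumor of number 323 Adipoq went from -0.42 to 2.67, and in number 307 it went from 3.26 to -0.70. The differences were 4.23 and -5.61 for Cfd, 3.71 and -2.56 for Cidec, 2.26 and -2.93 for Pck1 and 2.04 and -2.90 for Car3, in 323 and 307. In lung tumor 307 Adipoq, Cidec, Cidea and Pck1 were not well above background, nor was Adipoq in mammary tumor 323, so these differences are measured on 1 side only and their size is uncertain. Over the 20 markers the median difference was 0.85 in 323 and -0.97 in 307, and 12 of the 20 had opposite signs in the pairs, against 38.7% of all probes. Of the 11 enzymes 2 (18.2%) had opposite signs. Scd1 (-1.45 and -1.80) and Thrsp (-3.10 and -1.71) were lower in both lung tumors, as was Mgll (-1.88 and -1.98), and Fasn (1.86 and 0.21), Acaca (1.26 and 0.72), Acly (1.11 and 0.58) and Pnpla2 (1.33 and 1.55) were higher in both. Each pair is a single tumor of each kind and these differences have no test. Mammary tumors 323 and 307 were read in other software batches than the lung tumors, which also came from cell lines. Batch, cell culture and site therefore cannot be told apart within a pair.

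**Figure D5:**
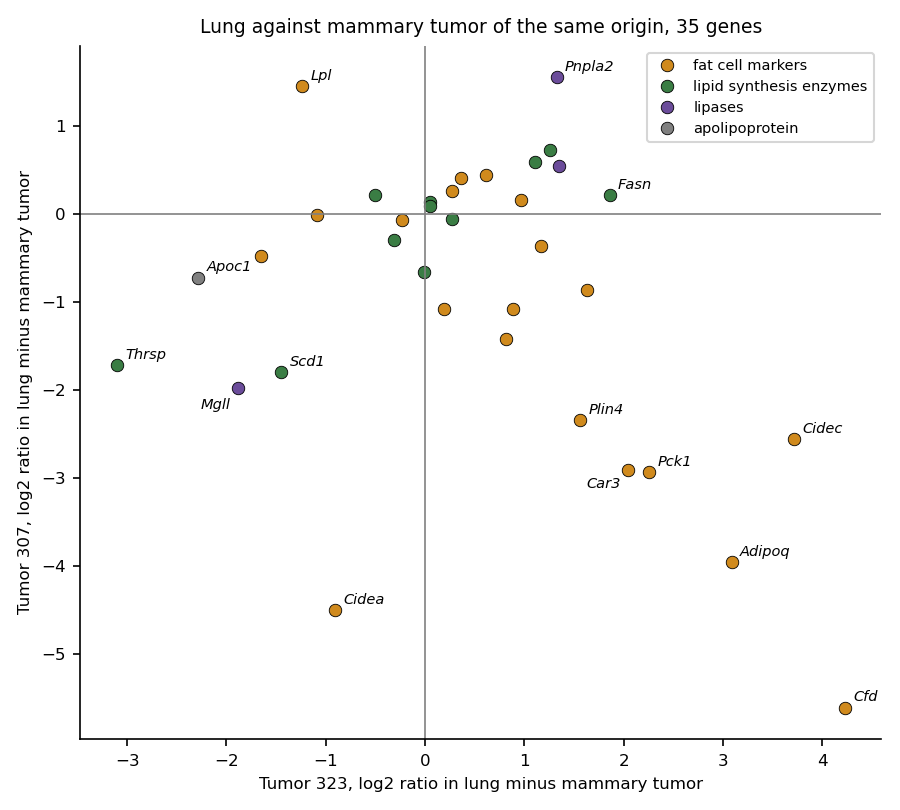
Log2 ratio in the lung tumor minus that in the mammary tumor of the same number, for tumor 323 (horizontal) and tumor 307 (vertical), each point a gene coloured by its list. Fat cell markers such as Cfd (4.23 and -5.61) and Adipoq (3.09 and -3.95) lie at the lower right, higher in the lung tumor of 323 and lower in that of 307.

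Other genes of both pathways were read from separate lists. Of 22 genes of fatty acid and sterol synthesis, 0 passed the adjusted threshold, with a median of -0.24, and 2 were lower and 0 higher at an unadjusted limma p below 0.05, where 4.25% of all probes were lower and 4.98% higher (Slc25a1, the citrate carrier, -0.59, and Gpam, which starts triglyceride synthesis, -0.74). Srebf1, the transcription factor of fatty acid synthesis, was at 2.06 in 131, 1.35 in 105 and 0.77 in 85, the tumors highest for Apoc1, and at -0.44 or lower in the other 7. Of 20 further genes of fat cells, 0 passed with all 10 tumors, the median was -0.51, and 6 were lower and 0 higher at an unadjusted limma p below 0.05, against the same background. Among them were Klf15, a transcription factor of fat and muscle (-2.83, SE 0.89), and Plin5, the perilipin of oxidative tissues (-2.21, SE 0.51), with limma adjusted p of 0.393 and 0.330. Macrophage genes (8 genes) had means of 2.92 to 3.63 in sarcomatoid tumors and 1.03 to 3.25 in adenocarcinomas, and 6 endothelial genes 2.56 to 4.38 and 2.71 to 4.37. Both cell types also make Fabp4, and their part in its values was not tested.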

How the data were processed

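Red and green fluorescence of 10 Agilent arrays was read with Feature Extraction, and the deposited scanner files give an intensity per spot and channel, a log10 ratio and flag scores for signal above background, per the file headers. The authors deposited a table of normalized log2 ratios. The labels name limma as processing tool, with no version and no steps. Of its 42515 rows 134 control rows were left out and 2185 repeated rows averaged, which left 40196 probes, and 978 array probes are not in it. Each column was set against the ratio of red over green on its own array (r 0.868 to 0.926).

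Members and lists were chosen with earlier results of these data known. Each gene was given by its brightest probe in red. Groups were compared with limma 3.58.1 (R 4.3.3), two-sided, with Benjamini-Hochberg adjustment over all probes at 0.05, in a fit of 2 groups for all 10 tumors and of 3 groups (mammary sarcomatoid, lung sarcomatoid, adenocarcinoma) for the other comparisons, after a test on simulated data. Exact permutation tests ran over tumors, and their p-values were not adjusted over the members. In these tests and in the main limma fits the lung tumors counted as separate from the mammary tumors of their origin. Per-tumor values are given for 12 members chosen by role and for the 3 with the smallest p in each comparison. Probe coordinates are from the annotation in the file of tumor 323 (mm7). The headers of 5 of the 10 arrays name mm8, and those files were not used for coordinates. The probes' place in exons or UTRs was not analysed here.

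The lung tumors came from cell lines of mammary tumors 323 and 307, so the tumor number pairs them by origin. Within the pairs, deviations from the group means correlated at 0.153 and 0.0297. Alternatives were normexp (offset 50) with loess, the scanner's log ratio, median centring, batch and slide terms, tumor number as a block or averaged, a filter on dim probes (30636 left, well above background on 5 arrays), the mean of a gene's probes and leaving out each tumor. The number of arrays limits the precision.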

Additional observations from a re-analysis of the deposited data

Results flagged for a closer look

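Groups of 5 tumors were tested for a single tumor far from the others (the 35 genes and both list means, in each group). Of 74 such groups, 3 were flagged by Dixon's test at a critical value of 0.71. Chance gives about 1 in 20, so that 3 of 74 is no more than chance alone would give. In adenocarcinomas, Ucp1, the heat-producing protein of brown fat, was at 5.33 in tumor 105 and at 0.11 to 0.67 in the other 4. Pck1 was at 7.40 in the same tumor and at -0.82 to 1.42 in the others. In the sarcomatoid group, the lipase gene Lipe was at -1.56 in tumor 323 and at -0.22 to 0.33 in the others.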

How the results depend on the processing

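Between sarcomatoid tumors and adenocarcinomas, 0 probes were called, 2 with 1 value per tumor number and 0 to 618 when a tumor was left out (618 without tumor 470). Members called ranged from 0 to 1. For mammary sarcomatoid tumors the range was 0 to 210 probes (210 without tumor 470), and 1 value per tumor number was not run there, since it merges sites. Between lung and mammary sarcomatoid tumors 10 probes were called, and the number called was 2 with loess, 5 with the scanner's log ratio, 6 with median centring, 0 with software batch as a term and 0 to 84 when a tumor was left out (84 without tumor 470). With tumor number as a replicate block it was 0, and the block changed no call of a member.

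The median of the fat cell markers was 0.25 within the third software batch and -1.02 to 0.0949 when a tumor was left out. For mammary sarcomatoid tumors it was -0.80 to 0.32 (0.32 without tumor 323, 0.29 without 105). Between lung and mammary tumors it was -0.40, turned to 1.55 with batch as a term and was -1.16 to -0.0825 when a tumor was left out, and the enzymes' median was -0.0346 to 0.30 (-0.0346 without lung tumor 323).

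Differences between sarcomatoid tumors and adenocarcinomas were followed for the 12 members chosen by role and the 3 with the smallest p. They turned sign for Adipoq, Plin1, Cidec, Fabp4, Lpl, Acly, Acaca, Fasn and Elovl6, of which none was called. Thrsp, outside this set, also turned sign with loess (-0.59). Adipoq was 0.0361 with 1 value per tumor number, 0.10 within the third batch and -1.34 to 0.23 when a tumor was left out. Within the third batch Plin1 was 0.36, Cidec 0.23, Acly 0.0365, Acaca 0.16 and Fasn 0.36. Leaving out a tumor gave -1.49 to 0.0843 for Plin1, -1.26 to 0.0958 for Cidec, -0.76 to 0.0208 for Fasn and -0.27 to 0.16 for Elovl6. Fabp4 was -0.0079 with slide as a block, -0.57 within the second batch and -0.18 to 0.61 when a tumor was left out. Lpl was -0.10 with batch as a term, -0.26 with slide as a block, -1.48 within the second batch and -0.34 to 0.69 when a tumor was left out. The cause was not tested. Over all comparisons and under alternatives other than leaving out a tumor, 207 values of single genes kept their direction and their side of the threshold and 12 turned sign. No member was called in the main fits, so that keeping the side of the threshold says little. Dim fat cell probes in the reference limit the size of the ratios.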

Other observations

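The mean log2 ratio of 6 fibroblast genes (such as Pdgfra and Col1a1) was highest in tumor 470 (2.26), followed by lung tumor 307 (1.67), 594 (1.503) and 105 (0.89), and was -1.86 or lower in adenocarcinomas 85, 131 and 17. These means have no test.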
